A study of Mus musculus with 15 samples.

Results

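Prolactin (Prl), its receptor (Prlr) and the secreted factors Edil3 and Angpt1, both used as markers of the prolactin-producing lactotrope cells of the anterior pituitary, were followed in whole pituitary glands of mice. The genes were taken by their symbols from the deposited count table, where each had 1 row, giving 4 of 55523 rows. All 4 passed the filter on low counts in each of the 5 comparisons made. The mice carried a CRISPR/Cas9 deletion of the pituitary enhancer (PE), an intronic element of Nr5a1 that drives this nuclear receptor in gonadotropes, and the enhancer-null animals (PE−/−) were set against heterozygotes (PE+/−). The controls therefore also carried the deletion on 1 of their chromosomes, and wild-type glands were not among the samples. There were 4 PE+/− and 4 PE−/− males, and 4 PE+/− and 3 PE−/− females, with 1 library per sample. Age, strain, the stage of the oestrous cycle, the number of founder lines and any pooling of glands are not given in the sources used here.

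Prolactin is the peptide hormone of the lactotrope and is best known for its actions on the mammary gland and on reproduction. Its secretion is held back by dopamine from the hypothalamus, which acts through the D2 receptor (Drd2), and its gene is driven by the pituitary factor Pit-1 (Pou1f1) and raised by oestrogen through the oestrogen receptor (Esr1). Prolactin binds a cytokine receptor, Prlr, which signals through the kinase JAK2 and STAT5 and switches on its own inhibitors, among them Cish. Angiopoietin 1 is the ligand of the endothelial receptor Tie2 (Tek), and Edil3 is a matrix protein that binds integrins on endothelial and other cells. In RNA from a whole gland, fewer cells of a type and less RNA per cell cannot be told apart.

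On mm10, with the annotation of GENCODE M21, Prl (MSTRG.6351) lies on the plus strand of chromosome 13 from 27057570 to 27065205, and Edil3 (MSTRG.6970) on the plus strand of the same chromosome from 88821472 to 89323223. Prlr (MSTRG.8351) lies on the plus strand of chromosome 15 from 10177238 to 10349180, and Angpt1 (MSTRG.8553) on its minus strand from 42424723 to 42676977. The assembled locus of Prlr held 3 rows in the table and those of the others 1 row each. The 250 bases before the start of Prl are shown because Prl carried the change in expression described below. They come from RefSeq on GRCm38.p6 (chr13:27057320-27057569, plus strand), and capitals mark matches to the core of the Pit-1 site (TATNCAT) and to the TATA box (TATAAA), searched on both strands.

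Prl upstream region: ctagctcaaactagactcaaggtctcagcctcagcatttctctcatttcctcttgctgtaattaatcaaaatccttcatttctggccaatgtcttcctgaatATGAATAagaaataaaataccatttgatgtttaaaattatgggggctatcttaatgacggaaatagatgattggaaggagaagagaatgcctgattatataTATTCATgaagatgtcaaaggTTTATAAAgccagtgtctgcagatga

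The Pit-1 core matched on the strand of the gene at −47 to −41 and on the opposite strand at −148 to −142, counted from the start. The TATA box matched at −24 to −19 and, on the opposite strand and overlapping it, at −26 to −21. RefSeq windows of 300 bases around gene starts reach 50 bases past the start, and only the 250 bases before it were searched. Among 32817 such windows, 7.93% held the Pit-1 core and 12.4% the TATA box. The Prl window held no match to the palindromic oestrogen response element (in 0.0640% of windows), to the NR5A1 core CAAGGTCA (1.33%) or to the STAT5 site TTCNNNGAA (7.01%). Of 3 windows of Prlr, 1 held a STAT5 site and none held any of the other motifs. No window was matched for Edil3 or Angpt1.

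Library totals ran from 12982794 to 30238443 estimated counts. Levels are given as CPM (counts relative to library size, after TMM scaling), and changes as log2 fold changes with their standard error (SE) from the quasi-likelihood test of edgeR, with p-values adjusted over all genes tested and called below 0.05. Nr5a1 ran from 33.7 to 80.2 CPM in the PE+/− libraries and from 0 to 0.897 CPM in the PE−/− libraries, so each library matched its genotype label. Growth hormone (Gh) and Prl were abundant in every library. Of the 6 markers of the posterior lobe, which summed to between 1.31 and 99.4 CPM, Avp and Oxt were at 0 in all 7 female libraries. PE+/− female replicate 3 stood apart among the PE+/− females in several genes given below, and many of the female results that it moved are given without it as well.

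Prl was the highest of the 4 genes in each library. In PE+/− females it was at 34046, 29367, 21965 and 35113 CPM, and in PE−/− females at 5189, 4459 and 5603 CPM. The groups did not overlap, and each of the 3 PE−/− females was also below the lowest PE+/− male. Prl took between 2.195% and 3.67% of all counts in PE+/− females, against a share of 0.477% to 0.578% in PE−/− females. Lack of overlap was shared by 18.6% of all genes tested in females.

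The female change of Prl was −2.58 (SE 0.21, edgeR adjusted p = 0.00698), to 0.168 of the control level, the 7th smallest p of 18085 genes tested. It was the only call among the 4 genes in females, where 1.05% of all genes were called and 0.697% were called lower. With each library left out in turn the change stayed between −2.71 and −2.50, and it was called each time, with edgeR adjusted p-values of up to 0.0411. Without PE+/− female replicate 3, the lowest control, it was −2.71 (SE 0.16, edgeR adjusted p = 0.00388). Among PE−/− females Prl was tight, with a coefficient of variation of 11.4% (n = 3) beside 19.9% in PE+/− females (n = 4).

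**Figure D1:**
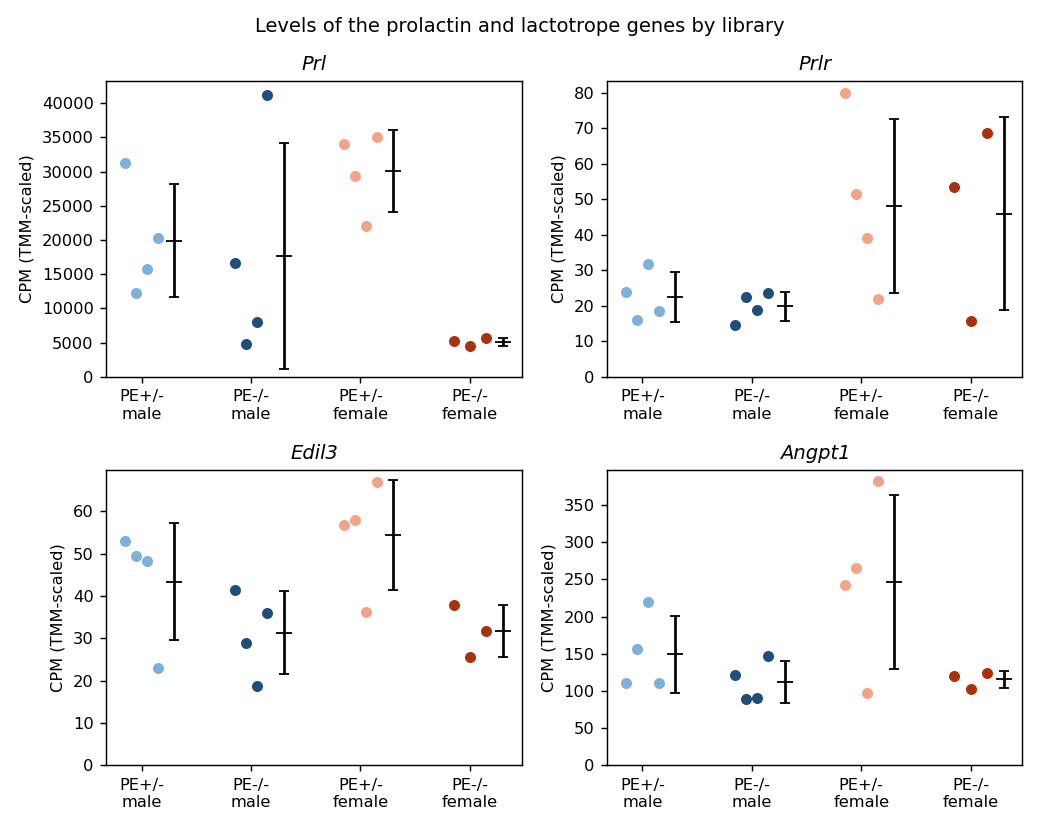
Levels of Prl, Prlr, Edil3 and Angpt1 in CPM (y axis, linear, from 0) in each library of the 4 groups (x axis), with points for libraries and a bar for the mean ± SD (n = 4, and n = 3 for PE−/− females). For Prl the 3 PE−/− females sit between 4459 and 5603 CPM below all 4 PE+/− females, and 1 PE−/− male at 41223 CPM lies above every other library.

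In males, Prl was at 31182, 12285, 15727 and 20337 CPM in the controls, while the null males had 16601, 4753, 8051 and 41223 CPM. The PE−/− males thus held the highest Prl level of the 15 libraries, in replicate 4, and 1 of the lowest, in replicate 2, an 8.67-fold range within the group beside 2.54-fold in PE+/− males. The groups overlapped, and none of the 4 genes was called in males by edgeR or DESeq2 or had an unadjusted p under 0.05. Of all genes tested, 0.132% were called and 6.14% had an unadjusted p under 0.05. The Prl change of −0.17 (SE 0.63, edgeR adjusted p = 0.990) hung on single libraries. It was −1.02 (SE 0.48, edgeR adjusted p = 0.867) when PE−/− male replicate 4 was left out. Leaving out the highest control, PE+/− male replicate 1, turned it to 0.13, and leaving out replicate 2 or 3 of the PE−/− males turned it to 0.14 or 0.06.

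PE−/− male replicate 4 was distinct in other genes as well, which were looked at after its Prl level was seen. It had the lowest Lhb, the beta subunit of luteinizing hormone, of all libraries (3.13 CPM, beside 15.2 to 17.2 CPM in the other 3 PE−/− males). It also had the highest Gal of its group, at 12.9 CPM beside 1.68 to 3.00 CPM, and the highest Greb1, at 11.2 CPM beside 0.281 to 1.011 CPM. Both are genes that oestrogen induces. Nr5a1 was at 0.740 CPM in this library, as low as its label implies.

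**Figure D2:**
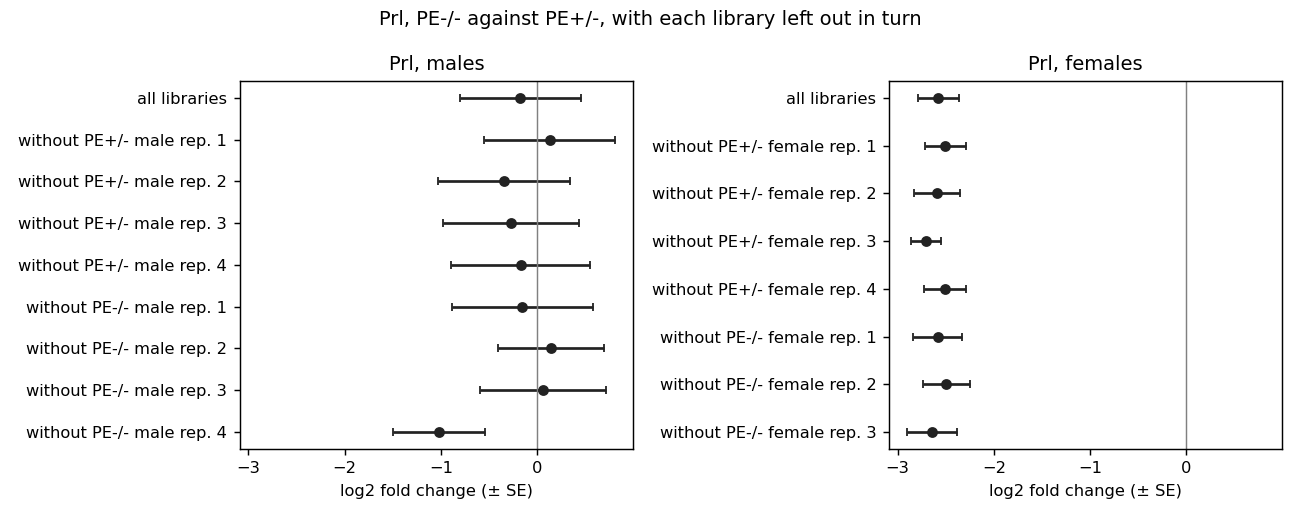
log2 fold change of Prl in PE−/− against PE+/− (x axis, point ± SE) with all libraries and with each library left out (y axis), for males on the left and females on the right. In females the values stay between −2.71 and −2.50, while in males they run from −1.02 to 0.14 on both sides of 0.

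Between the sexes, Prl was 0.60 higher on the log2 scale in PE+/− females than in PE+/− males (SE 0.31, edgeR adjusted p = 0.450). In PE−/− the females were the lower sex (−1.79, SE 0.70, edgeR adjusted p = 0.997). Neither difference was called. Without PE+/− female replicate 3 the difference in PE+/− was 0.73, and without PE+/− male replicate 1 it was 0.91 (edgeR adjusted p = 0.443 and 0.213). These comparisons share their groups with the comparisons of genotype, so they are not separate evidence. In PE−/− the difference was −0.95 without PE−/− male replicate 4 (SE 0.43, edgeR adjusted p = 0.999). The change in females minus that in males was −2.40 (SE 0.76, unadjusted p = 0.0076 and adjusted p = 0.274, edgeR), and it ran from −2.71 to −1.55 with each library left out. The female fall was therefore not shown to differ from the male change, and in that test 0.161% of all genes were called and 10.1% had an unadjusted p under 0.05.

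Relative to growth hormone, the product of the sister somatotrope lineage, Prl separated the females further. For each 100 counts of Gh there were 32.5, 35.6, 32.4 and 59.2 counts of Prl in the female controls, and 2.97, 5.17 and 5.36 in the female nulls. In males the ratios were 19.8, 7.18, 8.42 and 15.2 in PE+/− and 12.8, 4.49, 12.3 and 32.6 in PE−/−. The female groups lay well apart and the male groups overlapped. Gh itself had a mean of 78642 ± 19906 CPM (SD, n = 4) in PE+/− females and 121731 ± 46561 CPM (n = 3) in PE−/− females, with a change of 0.62 that was not called (edgeR adjusted p = 0.365). In males Gh moved by −0.61 (edgeR adjusted p = 0.727). The ratios draw on these differences as well as on Prl.

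No other gene of the prolactin family rose above the floor of detection. The table held 25 paralogues, most of them hormones of the placenta, of which 24 were at 0 counts in every library and 1, Prl6a1, reached 5 counts in a library. A count of 3 fragments, 12 counts in these values, was taken as the floor, which was at most 0.938 CPM in any library.

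The genes known to act on Prl were taken as a list of 21, of which 16 were tested in females and 18 in males. In females 1 was called by edgeR, the neuropeptide galanin (Gal), and 5 had an unadjusted p under 0.05. In males 0 were called by edgeR, with 1 at an unadjusted p under 0.05. Among all genes tested, 1.05% in females and 0.132% in males were called, and 16.1% and 6.14% had an unadjusted p under 0.05. DESeq2 called 3 of the list in females and 1 in males. The receptors and factors at the head of Prl control were not called in either sex. Pit-1 (Pou1f1) was at 700.2 ± 199.9 CPM (SD, n = 4) in PE+/− females and 563.7 ± 49.0 CPM (n = 3) in PE−/− females, a change of −0.32 (SE 0.25, edgeR adjusted p = 0.615), and −0.52 without PE+/− female replicate 3 (edgeR adjusted p = 0.152). The D2 receptor Drd2 was at 27.7 ± 6.97 and 32.3 ± 1.11 CPM (0.21, SE 0.21, edgeR adjusted p = 0.700), a change of 0.12 without that library. Esr1 was at 408 ± 36.2 and 346 ± 54.7 CPM (−0.24, SE 0.15, edgeR adjusted p = 0.475). The median change of the 16 genes was 0.20, beside 0.002 over all genes tested.

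Galanin, which lactotropes make under oestrogen, was at 87.4, 759, 746 and 731 CPM in PE+/− females and at 0.927, 1.98 and 2.41 CPM in PE−/− females. The groups did not overlap, and PE+/− female replicate 1 was the low one of its group. The change was −8.34 (SE 0.98, edgeR adjusted p = 0.0207), and −8.20 without PE+/− female replicate 3 (edgeR adjusted p = 0.0434). The call was lost without PE+/− female replicate 2 (−8.19, edgeR adjusted p = 0.0574) and without PE−/− female replicate 1 (−8.04, adjusted p = 0.0786), 2 (−8.43, adjusted p = 0.0985) or 3 (−8.61, adjusted p = 0.0955). In males it was at 10.7, 13.03, 49.3 and 4.98 CPM in PE+/− and at 2.23, 1.68, 3.00 and 12.9 CPM in PE−/−, with overlapping groups (−1.99, SE 0.87, edgeR adjusted p = 0.815).

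Other members of the list gave values that were not called. The oxytocin receptor (Oxtr) was at 66.8 CPM in PE+/− female replicate 3 and between 0.782 and 3.45 CPM in the other 14 libraries, so its female change of −3.84 (SE 1.63, edgeR adjusted p = 0.307) came from 1 library and was −0.62 without it (edgeR adjusted p = 0.666). The TGF-beta receptor Tgfbr2 was at 59.9 ± 5.56 CPM in PE+/− females and 91.7 ± 12.0 CPM in PE−/− females (0.61, SE 0.14, edgeR adjusted p = 0.0985). The glucocorticoid receptor Nr3c1 was at 95.0 ± 22.2 and 173.6 ± 21.6 CPM (0.86, SE 0.21, edgeR adjusted p = 0.0999). Without PE+/− female replicate 3 the changes of Tgfbr2 and Nr3c1 were 0.57 and 0.74 (edgeR adjusted p = 0.174 and 0.161). Both receptors carry signals known to lower Prl, and their part in the Prl change was not tested.

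**Figure D3:**
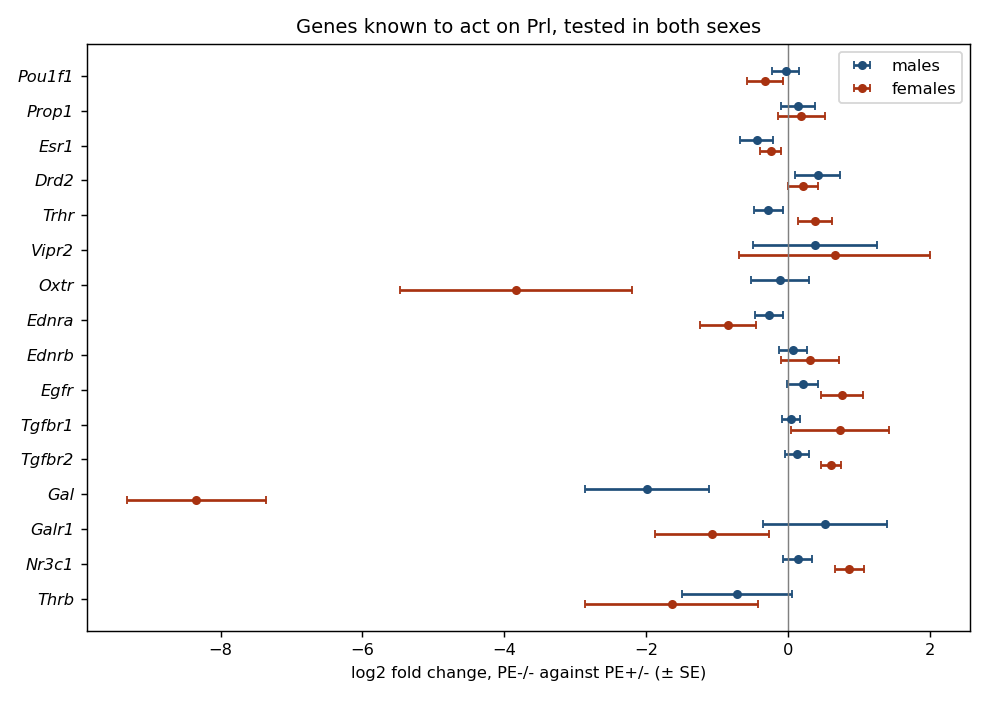
log2 fold change in PE−/− against PE+/− (x axis, point ± SE) of the 16 genes known to act on Prl that were tested in both sexes (y axis), with males in blue and females in red. Gal at −8.34 in females was the only call, the wide bar of Oxtr in females reflects 1 PE+/− library at 66.8 CPM, and Pou1f1, Esr1 and Drd2 lie within 0.44 of 0 in both sexes.

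Of 5 genes that oestrogen induces, 2 were called lower in females, Gal and Greb1, 4 had an unadjusted p under 0.05, and the median change was −1.73. Of the 5, 4 were below 0 and 1, Cish, was above 0, and Cish was among those with an unadjusted p under 0.05. Of all genes tested in females, 0.697% were called lower and 16.1% had an unadjusted p under 0.05. The list was chosen with earlier results of these data known, so its counts are a description and not separate evidence. Gal is also the call of the list of genes acting on Prl. Greb1, a cofactor of the oestrogen receptor, was at 19.2, 23.3, 65.8 and 18.9 CPM in PE+/− females and at 0.679, 0.526 and 0.832 CPM in PE−/− females, with no overlap (−5.55, SE 0.63, edgeR adjusted p = 0.0195). Its call was lost without the same libraries as that of Gal, PE+/− female replicate 2 (−5.68, edgeR adjusted p = 0.0507) and PE−/− female replicates 1 (−5.55, adjusted p = 0.0786), 2 (−5.39, adjusted p = 0.0882) and 3 (−5.73, adjusted p = 0.0901). PE+/− female replicate 3 had the highest Greb1 of its group and the lowest Prl, and without it the change was −4.93 (edgeR adjusted p = 0.00263). In males 0 of the 5 were called by edgeR or DESeq2, and 0 had an unadjusted p under 0.05. Without PE−/− male replicate 4, 1 of the 5 was called in males, Greb1 (−4.32, SE 0.54, edgeR adjusted p = 0.0381). DESeq2 called 4 of the 5 in females.

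Prlr was a low gene. It was at 80.1, 51.4, 39.2 and 21.8 CPM in PE+/− females and at 53.4, 15.8 and 68.7 CPM in PE−/− females. In males it was at 23.9, 15.9, 31.8 and 18.5 CPM in PE+/− and at 14.6, 22.6, 18.8 and 23.7 CPM in PE−/−. Within each sex the groups overlapped widely, and the females spread more, with a coefficient of variation of 51.0% and 59.2% against 31.2% and 20.6% in males.

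The male change of Prlr with genotype was −0.18 (SE 0.25, edgeR adjusted p = 0.983). The female change was −0.08 (SE 0.57, edgeR adjusted p = 0.970), and its sign turned without PE+/− female replicate 1 (0.29) or PE−/− female replicate 2 (0.32), while it was −0.18 without PE+/− female replicate 3. An SE of 0.57 leaves a change of that size in either direction undetectable here. The higher values lay in females. The difference of females from males was 1.11 in PE+/− (SE 0.40, unadjusted p = 0.0237 and adjusted p = 0.277, edgeR) and 1.21 in PE−/− (SE 0.45, unadjusted p = 0.0294 and adjusted p = 0.997, edgeR). Neither was called, and 13.5% and 3.37% of all genes had an unadjusted p under 0.05 in these comparisons, where 0.67% and 0.0494% were called.

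Of the 11 genes of prolactin receptor signalling, all tested, 0 were called by edgeR in either sex, and DESeq2 called 2 in females. An unadjusted p under 0.05 was found for 2 in females and 0 in males. The share of all genes at that level was 16.1% in females and 6.14% in males, so the female count is near that share. Stat5a, a transcription factor that carries the signal to the nucleus, was at 55.6, 41.7, 161.6 and 55.0 CPM in PE+/− females and at 31.4, 22.6 and 22.9 CPM in PE−/− females. The groups did not overlap, but the highest value was again that of PE+/− female replicate 3 (−1.62, SE 0.50, edgeR adjusted p = 0.169), and without it the change was −1.001 (edgeR adjusted p = 0.114). Its sister gene Stat5b was at 127.6 ± 42.7 and 96.3 ± 7.81 CPM (−0.41, edgeR adjusted p = 0.482), and its change was −0.16 without PE+/− female replicate 3 (edgeR adjusted p = 0.668). The feedback inhibitor Cish was at 54.0 ± 13.4 CPM in PE+/− females and 94.5 ± 0.898 CPM in PE−/− females (0.80, SE 0.22, edgeR adjusted p = 0.131). Its change was 0.64 without PE+/− female replicate 3 (edgeR adjusted p = 0.145). The median change of the list in females was 0.03.

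Edil3 was at 56.7, 57.8, 36.2 and 66.9 CPM in PE+/− females and at 37.9, 25.5 and 31.7 CPM in PE−/− females. The groups overlapped in PE+/− female replicate 3 alone, which lay below the highest PE−/− female. The change was −0.79 (SE 0.24, unadjusted p = 0.0136 and adjusted p = 0.173, edgeR), where 16.1% of all genes had an unadjusted p under 0.05, and −0.95 without that library (SE 0.18, edgeR adjusted p = 0.0986). In males it was at 53.1, 49.3, 48.2 and 23.0 CPM in PE+/− and at 41.4, 28.9, 18.7 and 36.0 CPM in PE−/−. The males overlapped (−0.47, SE 0.32, edgeR adjusted p = 0.963), with −0.69 without PE+/− male replicate 4, the low control (SE 0.26, edgeR adjusted p = 0.715). Females and males differed by 0.33 in PE+/− (SE 0.29, edgeR adjusted p = 0.697) and by 0.02 in PE−/− (SE 0.28, edgeR adjusted p = 0.998). The difference in PE+/− was 0.11 without PE+/− male replicate 4 and 0.48 without PE+/− female replicate 3, and it was not called in either case (edgeR adjusted p = 0.904 and 0.595).

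In the list of Edil3, its relative Mfge8 and 3 integrin subunits, 0 of 5 were called by genotype by edgeR in females and 0 of 5 in males. In females 2 had an unadjusted p under 0.05, and in males 0. All genes tested reached that level in 16.1% of cases in females and 6.14% in males. Mfge8, which like Edil3 binds integrins and membrane lipid, was at 301.2, 327, 330.0 and 390.5 CPM in PE+/− females and at 195.6, 102.6 and 123.8 CPM in PE−/− females. These groups did not overlap, and the change of −1.27 missed the threshold (SE 0.24, edgeR adjusted p = 0.0634), as it did without PE+/− female replicate 3 (−1.29, edgeR adjusted p = 0.111). It passed without PE−/− female replicate 1, the highest of its group (−1.58, edgeR adjusted p = 0.0327), and DESeq2 called it (−1.27, adjusted p = 0.000135). In PE+/− males Mfge8 was at 130.5, 156.9, 144.6 and 119.8 CPM. All 4 PE+/− females lay above all 4 PE+/− males, a difference of 1.29 that was called (SE 0.13, edgeR adjusted p = 0.00773) in a comparison where 9.75% of all genes did not overlap. In PE−/− the sexes differed by 0.16 (SE 0.24, edgeR adjusted p = 0.997). The integrin subunits Itgav, Itgb3 and Itgb5, parts of the receptors for both proteins, changed by 0.001, −0.66 and −0.26 in females and were not called.

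Angpt1 was at 242.6, 265.3, 96.9 and 382.6 CPM in PE+/− females and at 120.2, 102.6 and 124.1 CPM in PE−/− females. As with Edil3, PE+/− female replicate 3 was the lowest of its group, and for Angpt1 it lay below all PE−/− females. The change was −1.10 (SE 0.41, unadjusted p = 0.0297 and adjusted p = 0.245, edgeR). Without that library it was −1.37 (SE 0.20, edgeR adjusted p = 0.0543), just short of the threshold, and without PE+/− female replicate 4, the highest, it was −0.82 (SE 0.38, edgeR adjusted p = 0.362).

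In males Angpt1 was at 111.3, 156.7, 220.1 and 110.6 CPM in PE+/− and at 121.3, 89.6, 90.3 and 147.7 CPM in PE−/−. The groups overlapped, with a change of −0.42 (SE 0.27, edgeR adjusted p = 0.946) that was −0.17 without PE+/− male replicate 3, the highest control (edgeR adjusted p = 0.987). The PE+/− females were the most variable group, with a coefficient of variation of 47.5%, and the PE−/− females the least, at 9.93%. Females and males differed by 0.72 in PE+/− (SE 0.40, edgeR adjusted p = 0.488) and by 0.05 in PE−/− (SE 0.20, edgeR adjusted p = 0.997). The difference in PE+/− was 0.99 without PE+/− female replicate 3 (edgeR adjusted p = 0.257) and 0.43 without PE+/− female replicate 4 (edgeR adjusted p = 0.724). The female change minus the male change was −0.68 (SE 0.50, edgeR adjusted p = 0.732), and −0.94 or −0.40 without the same libraries.

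Of the 6 genes of the angiopoietin and Tie2 list, 5 were tested in each sex and 0 were called by edgeR, with 0 called by DESeq2 in females. In females 1 (Angpt1) had an unadjusted p under 0.05, and in males 0, beside 16.1% and 6.14% of all genes tested. The receptor gene Tek was at 16.5 ± 3.80 CPM in PE+/− females and 12.2 ± 1.72 CPM in PE−/− females (−0.45, SE 0.23, edgeR adjusted p = 0.390), and Tie1, its partner receptor, at 13.03 ± 2.06 and 9.91 ± 1.96 CPM (−0.40, SE 0.21, edgeR adjusted p = 0.407). Angpt2, which can oppose Angpt1 at Tie2, was at 17.2 ± 5.62 and 25.6 ± 4.87 CPM (0.57, SE 0.30, edgeR adjusted p = 0.415).

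**Figure D4:**
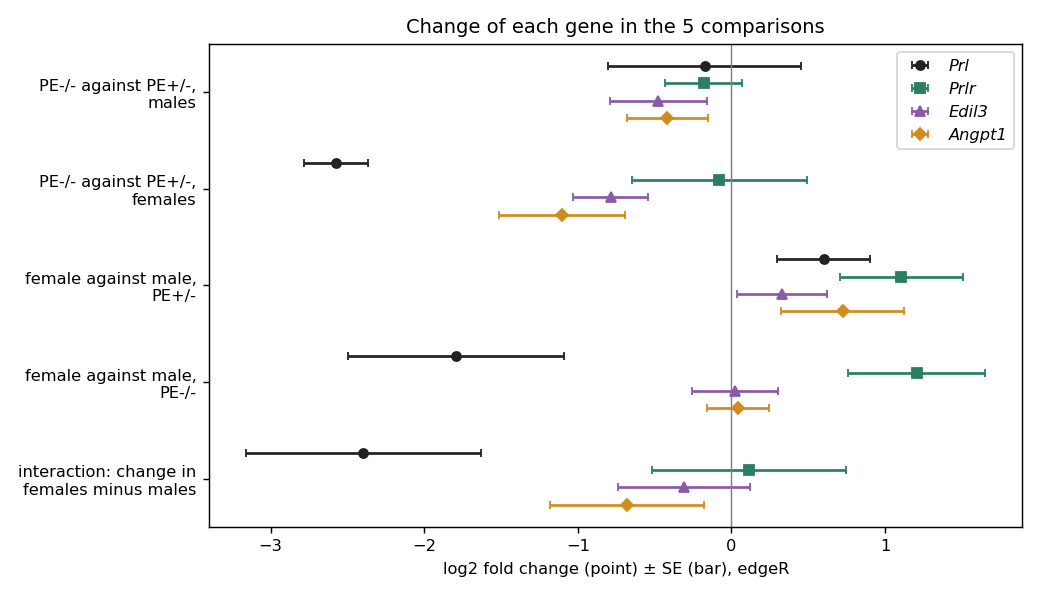
log2 fold change (x axis, point ± SE from edgeR) of Prl, Prlr, Edil3 and Angpt1 in the 5 comparisons (y axis). Prl in females, at −2.58, was the only call. All 4 genes were below 0 with the loss of the enhancer in both sexes, although Prl in males and Prlr in both sexes changed sign when single libraries were left out, and Prlr was higher in females than in males by 1.11 and 1.21 without passing the test.

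The lactotrope list of 8 markers held Prl, Edil3, Angpt1 and 5 others, and all 8 were tested. In females 1 was called by edgeR, Prl, and 3 had an unadjusted p under 0.05, Prl, Edil3 and Angpt1, all of them lower. Of the 8, 4 were below 0 and 4 above, and the median change was 0.009. In males 0 were called by edgeR and 0 by DESeq2, with 2 at an unadjusted p under 0.05, and the median was 0.02. Over all genes tested, 1.05% in females and 0.132% in males were called, and 16.1% and 6.14% had an unadjusted p under 0.05. The angiotensin receptor Agtr1a, by which lactotropes respond to angiotensin, was at 35.1 ± 16.9 CPM in PE+/− females and 55.8 ± 11.8 CPM in PE−/− females (0.66, SE 0.36, edgeR adjusted p = 0.434). Without PE+/− female replicate 3 its change was 0.47 (edgeR adjusted p = 0.607). The male values lay in the opposite order, from 115.6 ± 41.2 to 58.8 ± 16.4 CPM (−0.98, SE 0.30, unadjusted p = 0.0106 and adjusted p = 0.547, edgeR). Syndig1, Drd2, Ddah1 and Six6 had changes between −0.06 and 0.39 in females and were not called. The estimates of the 8 markers thus did not share a direction in females, and the only call among them was that of the hormone gene. The markers that were not called are not shown to be unchanged.

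Among the markers of other cells, only those of gonadotropes held calls by genotype in females by edgeR. Across all genes tested in females, 1.05% were called, 0.697% were called lower and 16.1% had an unadjusted p under 0.05. The part of other cells in the Prl result was not tested. Of 5 gonadotrope markers 3 (Lhb, Gnrhr and Nr5a1) were called lower in females, and the summed level of the list was 5860 to 8742 CPM in PE+/− and 2265 to 6947 CPM in PE−/− females. None of the 5 was at 0 in all libraries of a female group. No marker of the somatotrope list (59437 to 104915 CPM in PE+/− and 86430 to 174666 CPM in PE−/− females), the corticotrope and melanotrope list (25969 to 48611 and 46289 to 52247 CPM) or the thyrotrope list (377 to 574 and 553 to 593 CPM) was called in females by edgeR, with 2 of 4, 0 of 6 and 1 of 4 tested at an unadjusted p under 0.05. The same held for stem or folliculostellate (109.3 to 166.8 and 162.0 to 244 CPM), endothelial (121.8 to 171.9 and 113.4 to 131.4 CPM), pericyte or fibroblast (504 to 1028 and 402 to 479 CPM), immune (79.3 to 109.5 and 71.8 to 86.0 CPM) and erythroid (571 to 1346 and 384 to 791 CPM) markers, with 2, 1, 1, 0 and 2 at an unadjusted p under 0.05. Of the posterior lobe markers 2 could be tested in females, and Nkx2-1, Avp and Oxt were at 0 in all PE−/− females.

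Set per kilobase of annotated exon, which allows levels of different genes to be compared, mean Prl was 21394 CPM per kb in PE+/− females and 3611 in PE−/− females, 14121 in PE+/− males and 12541 in PE−/− males. Angpt1 came next, at 47.4, 22.2, 28.8 and 21.6 CPM per kb in the same order of groups. Edil3 (3.98, 2.32, 3.17 and 2.29 CPM per kb) and Prlr (3.14, 3.00, 1.47 and 1.30 CPM per kb) were lowest. Prl stood 451 times above Angpt1 in PE+/− females and 163 times above it in PE−/− females.

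For each gene the PE+/− females had the highest mean level, but few neighbours in the order of the 4 groups were apart by more than the larger SD of the pair. For Prl, PE+/− females (30123 ± 5984 CPM, SD, n = 4) exceeded PE+/− males (19883 ± 8224, n = 4) by more than that SD, although their ranges overlapped, and PE−/− males (17657 ± 16485, n = 4) and PE−/− females (5084 ± 579, n = 3) followed without clearing it. For Prlr the order was PE+/− females (48.1 ± 24.5 CPM), PE−/− females (46.0 ± 27.2), PE+/− males (22.5 ± 7.04) and PE−/− males (19.9 ± 4.10), with no neighbours apart. Edil3 (54.4 ± 12.95, 43.4 ± 13.8, 31.7 ± 6.22 and 31.3 ± 9.82 CPM) and Angpt1 (246.8 ± 117.3, 149.7 ± 51.7, 115.6 ± 11.48 and 112.2 ± 27.9 CPM) shared the order of PE+/− females, PE+/− males, PE−/− females and PE−/− males, again with no neighbours apart.

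Across the 15 libraries the profiles were compared by the root mean square (RMS) difference of log2 CPM, each gene centred on its own mean, so that 0 is an identical pattern. Edil3 and Angpt1 were the closest pair of the 4, at 0.376. Prl was at 0.905 from Edil3 and 0.912 from Angpt1, and Prl and Prlr were the farthest apart, at 1.31. Libraries share group and depth, and the measure also grows with a gene's own spread, so these values are a description.

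Among 16027 genes, the 5 most like Prl were Pianp, Gm36495, Rnf183, Kctd4 and AC167169.1 (RMS difference 0.667 to 0.740). Pianp had mean levels of 61.8 CPM in PE+/− females, 23.1 CPM in PE−/− females, and in the males 40.8 CPM in the controls and 25.95 CPM in the nulls. Kctd4 was at 90.0, 24.0, 32.6 and 31.7 CPM in the same order, and Rnf183 at 32.3, 9.72, 18.6 and 12.0 CPM. All 3 had their highest mean in PE+/− females and their lowest in PE−/− females, like Prl. They were picked by likeness over these same libraries, so the shared order is not a separate result. The 5 most like Prlr were H2-Eb1, Gm2814, Gm27029, Snord104 and Gm6341, led by H2-Eb1, a class II histocompatibility gene, at 0.430.

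The genes nearest to Edil3 were Gm15443, Scarb2, Slc18a1, Ptpro and Dcc (0.253 to 0.291), and those nearest to Angpt1 were F2rl1, Gpm6a, Hepacam2, Pigz and Hapln1 (0.240 to 0.321). Scarb2, a lysosomal membrane protein, was at 184 CPM in PE+/− females and 117.5 CPM in PE−/− females, and Ptpro, a receptor phosphatase, at 71.0 and 39.9 CPM. F2rl1, a protease-activated receptor, was at 35.4 and 22.1 CPM, and Gpm6a, a membrane glycoprotein of neurons, at 384 and 230.2 CPM. Like Angpt1, its 5 nearest genes had their lowest level among PE+/− females in replicate 3, which the choice by likeness favours.

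**Figure D5:**
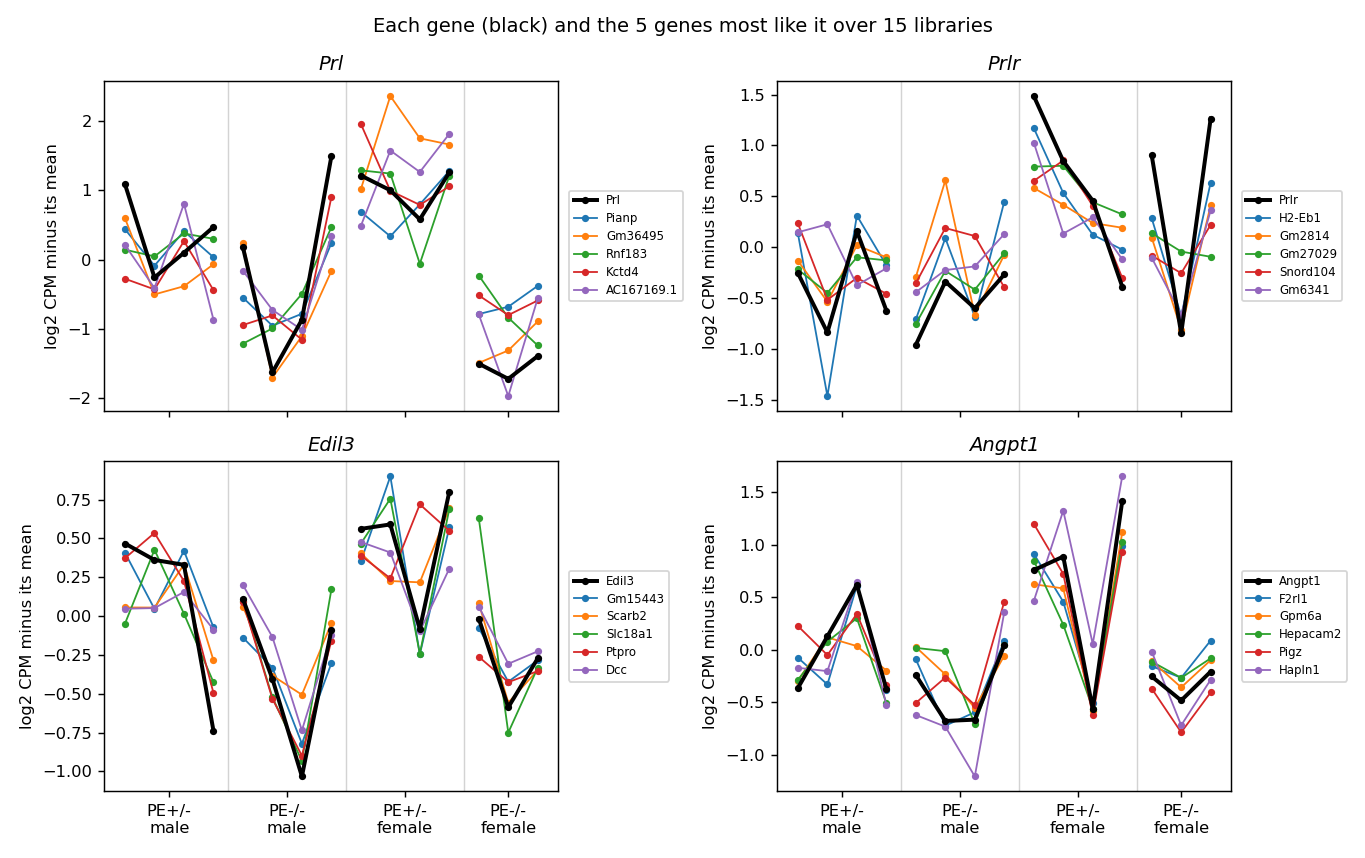
log2 CPM minus the gene's mean (y axis) in each of the 15 libraries, grouped as on the x axis and in order of replicate number within a group, for each gene in black and the 5 genes most like it in colour, with lines joining values of the same gene. Prl and its 5 nearest genes are below their means in all 3 PE−/− females, and Angpt1 and its nearest genes share a dip in PE+/− female replicate 3.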

How the data were processed

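Whole pituitary RNA of 15 samples was sequenced as paired reads from a low-input library kit. The study's methods name cutadapt for trimming, STAR with mm10 for mapping and featureCounts for counting. The authors deposited estimated counts, whole numbers with no normalization. Row names and values looked like coverage-based estimates from an assembly, for which the methods give no step. The value 5 occurred 1.52 times as often as the mean of 4 and 6, and 4 counts were taken as 1 fragment and 3 fragments as the floor. Floors cover counting error only. Strand handling of these values is not known. Genes overlapping others are therefore uncertain.

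Genes were kept by filterByExpr (minimum count 10, total 15), scaled by TMM and tested, two-sided, by the edgeR 4.0.16 quasi-likelihood test in R 4.3.3 fitted to the compared groups alone, with Benjamini-Hochberg adjustment over all genes and a threshold of 0.05. SE was the log2 fold change over the square root of F. Comparisons were genotype in each sex, sex in each genotype, and their interaction. Alternatives were DESeq2 1.42.0, its size factors, library totals, no low-count filter, a 1 CPM filter, the likelihood ratio test, a single model of 15 libraries, a replicate block, rows summed per locus, counts divided by 4 and leaving out each library. Scripts were tested on simulated data. Within groups, libraries varied beyond counting noise (chi-square per degree of freedom 71.4 to 231). Profiles for likeness used a prior count of 2 and genes with a mean of at least 20 counts. The members and lists were chosen with earlier results of these data known. The genes named were the 4 members, genes of the fixed lists, and the 5 genes most like each member. Isolated gonadotropes were not analysed here.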

Additional observations from a re-analysis of the deposited data

Results flagged for a closer look

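Edil3 in PE+/− male replicate 4 was at 22.95 CPM, far below the other 3 PE+/− males, which were at 48.2 to 53.1 CPM. Its gap to the nearest of them was 0.840 of the group's range, past the limit of Dixon's test for 4 samples. Chance alone gives such a gap in about 1 of 20 groups, and 12 sets of a gene and a group were checked, with this 1 result. Without this library the change of Edil3 in males was −0.69 in place of −0.47 and was not called either way.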

How the results depend on the processing

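The direction and side of the threshold of Prl in females held in 16 of 17 alternatives (−2.71 to −2.50 with a library left out). The exception was the replicate block, at −2.48 (SE 0.21, edgeR adjusted p = 0.207), where 0 of the 4 genes were called, against 1 otherwise, and 1 gene of all was called. In males the replicate numbers did not pair the samples. Deviations of same-numbered libraries correlated between −0.0801 and 0.00417, and 0 PE+/− libraries correlated best with their own number. In females this could not be settled. Over 3 pairs the correlations were −0.0471 to 0.132, beside −0.125 to 0.0992 for libraries of unlike number. There 2 PE+/− libraries correlated best with their own number.

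Values that were not called changed sign as follows. With each library left out, Prl in males ran from −1.02 to 0.14, Prlr from −0.32 to 0.035 in males and from −0.48 to 0.32 in females, the sex difference in PE−/− from −0.16 to 0.19 for Edil3 and from −0.050 to 0.20 for Angpt1, and the Prlr interaction from −0.31 to 0.51. Library totals gave −0.0100 for Edil3 between the sexes in PE−/−, and the replicate block −0.17 for the Prlr interaction. The cause was not tested. In males, between the sexes and in the interaction, 0 of the 4 genes were called under any alternative run.

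Counts over all genes moved more. In females 189 genes were called, 29 to 244 with a library left out and 1 to 1431 otherwise, and in males 23, 11 to 35 and 0 to 206. Between the sexes the counts were 115, 34 to 113 and 0 to 900 in PE+/−, and 9, 7 to 27 and 0 to 41 in PE−/−, and in the interaction 31, 7 to 71 and 11 to 394. In females the list of genes acting on Prl had 1 call, with 0 to 1 when a library was left out and 0 to 3 otherwise, and the oestrogen-induced list 2, with 0 to 2 and 0 to 4. In males the oestrogen-induced list had 0 calls, and 1 without PE−/− male replicate 4. Of the 5 genes most like each of the 4, 4 or 5 stayed with a prior count of 0.5, and 0 when the 4 group means were compared in place of the libraries.

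With 3 or 4 libraries a group, the SEs for the 4 genes were 0.20 to 0.76, and changes of that size could not be detected. Changes well above their SE also went uncalled, such as Angpt1 in females (−1.10, SE 0.41). A gene that was not called is therefore not shown to be unchanged.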

Other observations

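2 receptors of the lists used here, looked at after their values were seen, were found in PE+/− males and at or under the floor elsewhere. Gpr101, an orphan receptor of the growth hormone axis, was at 20.6, 15.3, 7.99 and 11.4 CPM in PE+/− males. It was listed at 0 in all PE−/− males and all PE+/− females, and at 0.155 CPM, 5 counts, in 1 PE−/− female. The dopamine receptor Drd4 was at 21.6, 1.48, 2.81 and 7.05 CPM in PE+/− males and at 0 in every PE−/− male. In females it was at 0.488 CPM, 8 counts, in PE+/− replicate 4 and at 0 in the other 6 libraries. Both female values lie below the floor of 12 counts. Gpr101 was called lower by edgeR in PE−/− than in PE+/− males, and lower in PE+/− females than in PE+/− males. Drd4 was called in neither comparison. Of all genes tested in these, 0.132% and 0.67% were called.

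Agtr1a differed between the sexes of PE+/− mice more than any member did in log2 units, without passing the test. It was at 92.8, 137.6, 161.3 and 70.9 CPM in PE+/− males and at 58.5, 24.8, 21.0 and 36.0 CPM in PE+/− females, groups that did not overlap (−1.71, SE 0.39, edgeR adjusted p = 0.111). In PE−/− it was at 60.0, 57.3, 38.9 and 79.0 CPM in males and at 51.0, 47.3 and 69.3 CPM in females, which overlapped.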
